A study of Mus musculus with 4 samples.

Results

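The Nrf2 ChIP-seq signal of wild-type mouse esophagus was compared with that of Nrf2KO esophagus, which gives the signal of the same antibody in a library labelled as lacking its target. Every gene row of the deposited table was used, and rows that list exactly the same called intervals were counted once. The 1940 gene rows gave 1469 interval sets, and all 1469 enter the comparison. The mice were C57BL/6, and each genotype (wild-type, Nrf2KO, Keap1KO) has 1 ChIP library, so no difference below has a replicate check. The allele and reach of either deletion, the age and sex of the mice and the number of animals per library were not in the labels used here. Of the 1469 sets, 1121 belong to 1 gene and 348 to several, up to 7. A height is the authors' average peak height of a library over the regions of a gene, in a signal whose unit is not stated. It was a whole number in 100% of the 3362 gene-by-library values of wild-type and Nrf2KO in genes with 1 region.

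Nrf2, encoded by Nfe2l2, is a transcription factor that binds antioxidant response elements in DNA as a dimer with a small Maf protein. Keap1 holds it in the cytoplasm and passes it to ubiquitin-dependent degradation, so that unstressed cells contain little of it. Its known targets make and use glutathione, reduce thioredoxin and quinones, supply NADPH and handle heme and iron. Comparing wild-type with Nrf2KO asks where antibody signal in tissue with intact Keap1 exceeds the signal found without Nrf2. The whole tissue was used, and fewer cells with bound Nrf2 cannot be told apart from less Nrf2 bound per cell.

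Sequences are shown for 6 genes whose interval lay inside their promoter window, to set promoters with the taller peak in wild-type beside promoters with the taller peak in Nrf2KO. The 6 were chosen by hand and are examples only. Prdx1 (peroxiredoxin 1), Osgin1 (an oxidative stress response protein) and Srxn1 (sulfiredoxin) were higher in wild-type. Maff (a small Maf protein), Angptl2 (a secreted angiopoietin-like protein) and Akt2 (a protein kinase of insulin signalling) were higher in Nrf2KO. Maff belongs to the Nrf2 pathway lists, as do Prdx1, Osgin1 and Srxn1. Starts in RefSeq can differ from those used in the deposited table. Each run is the 250 bases before the annotated start in RefSeq of GRCm38.p6, the assembly of mm10, read 5′ to 3′ towards the gene, and all 6 genes lie on the plus strand. Capitals mark TGACNNNGC, the core of the antioxidant response element, or TGAGTCAGC, on either strand. On the minus strand the core appears as its reverse complement. The places are chr4:116685349-116685598 for Prdx1, chr8:119436897-119437146 for Osgin1, chr2:152105274-152105523 for Srxn1, chr15:79347270-79347519 for Maff, chr2:33215711-33215960 for Angptl2 and chr7:27591302-27591551 for Akt2.
Prdx1: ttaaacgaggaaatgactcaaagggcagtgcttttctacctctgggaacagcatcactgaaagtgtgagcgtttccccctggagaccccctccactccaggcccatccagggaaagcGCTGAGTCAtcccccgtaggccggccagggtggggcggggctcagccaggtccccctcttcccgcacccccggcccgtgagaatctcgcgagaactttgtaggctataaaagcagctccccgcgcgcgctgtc
Osgin1: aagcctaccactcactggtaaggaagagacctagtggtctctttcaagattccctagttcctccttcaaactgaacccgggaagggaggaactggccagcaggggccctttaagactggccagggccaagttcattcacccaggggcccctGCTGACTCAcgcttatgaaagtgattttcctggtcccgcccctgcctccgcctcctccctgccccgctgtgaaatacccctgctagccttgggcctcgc
Srxn1: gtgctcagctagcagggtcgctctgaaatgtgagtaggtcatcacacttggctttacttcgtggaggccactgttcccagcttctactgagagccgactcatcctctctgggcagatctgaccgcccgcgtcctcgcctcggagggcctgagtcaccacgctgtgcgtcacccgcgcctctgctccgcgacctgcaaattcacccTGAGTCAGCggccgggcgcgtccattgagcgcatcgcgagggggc
Maff: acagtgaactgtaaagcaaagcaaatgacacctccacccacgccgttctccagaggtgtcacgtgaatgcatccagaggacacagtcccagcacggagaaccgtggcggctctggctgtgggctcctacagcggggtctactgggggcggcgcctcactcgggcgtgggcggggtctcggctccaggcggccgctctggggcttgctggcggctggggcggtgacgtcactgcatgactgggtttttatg
Angptl2: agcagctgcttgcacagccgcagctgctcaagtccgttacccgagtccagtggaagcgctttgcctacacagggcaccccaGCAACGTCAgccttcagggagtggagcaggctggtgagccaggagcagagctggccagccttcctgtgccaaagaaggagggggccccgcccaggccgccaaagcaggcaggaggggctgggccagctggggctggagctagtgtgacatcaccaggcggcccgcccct
Akt2: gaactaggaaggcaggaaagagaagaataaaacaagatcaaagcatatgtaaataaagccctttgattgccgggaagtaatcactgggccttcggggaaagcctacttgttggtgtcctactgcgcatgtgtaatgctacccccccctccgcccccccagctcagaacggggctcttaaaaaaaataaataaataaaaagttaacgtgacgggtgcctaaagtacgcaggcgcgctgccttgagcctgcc

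Heights at these promoters were 20 in wild-type and 9 in Nrf2KO for Prdx1. Osgin1 had 11 and 6, and Srxn1 had 13 and 10. The order was the opposite at Maff (11 in wild-type, 17 in Nrf2KO), Angptl2 (9 and 15) and Akt2 (2 and 12). The marked element began 133 bases before the start at Prdx1, 99 at Osgin1, 45 at Srxn1 and 169 at Angptl2. It was the core at Prdx1 and Angptl2, and TGAGTCAGC at Osgin1 and Srxn1. The Osgin1 window held no core, and that of Srxn1 lay 28 bases after the start, outside the bases shown. Maff and Akt2 held neither form in the window, which says only that these letters are not there. These 6 examples cannot show whether the element goes with the direction. Among the sets not shown, that of 3230401D17Rik (3 in wild-type, 10 in Nrf2KO) held the core. Of the 47 sets of 1 region with the core in a promoter window, 18 were higher and 24 lower in wild-type.

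Median ratios at promoters with and without the core lay close to each other. Ratios here are log2((wild-type + 1)/(Nrf2KO + 1)), and folds are on the same scale, which understates the difference at low heights. TGACNNNGC, searched on both strands in the 300 bases from 250 before to 50 after each start, was in 12.4% of 32851 RefSeq promoter windows and in 39.6% of the 139 windows that held an interval of a set with 1 region. TGACTCAGC, one of the forms the core takes, was in 0.454% of all windows and in 7.19% of the 139. TGAGTCAGC, which was added after the data were seen and is no form of the core, was in 0.414% and 3.60%. Windows with an interval also had more G and C (60.6% of bases against 53.8%). They belonged to 120 sets. The median ratio, on the log2 scale, was -0.13 in the 47 sets with the core (18 higher and 24 lower in wild-type) and -0.14 in the 73 without it (26 and 38). With either 9-letter form it was 0.00 over 15 sets, 7 higher and 7 lower in wild-type. Of these 15, 2 were at least 2-fold higher and 0 at least 2-fold lower, beside 3 and 12 of the 105 sets with neither form. TGACTCAGC alone had a median of -0.18 over 10 sets, 4 higher and 6 lower in wild-type.

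Wild-type heights exceeded Nrf2KO heights by a small margin over the table as a whole and by a large one at a short list of sites. Wild-type heights had a median of 5, with quartiles of 3.25 and 7 and a largest value of 32. In Nrf2KO the median was 4.5, the quartiles 3 and 7 and the largest value 17. The means were 5.73 and 5.01. Wild-type was higher at 790 sets, which is 53.8% of all, equal at 153 and lower at 526. The median log2 ratio was 0.19 with quartiles of -0.32 and 0.74. Wild-type was at least 2-fold higher at 268 sets, 18.2% of all, and at least 2-fold lower at 117, or 7.96%. Multiplying wild-type heights by 0.9, so that both medians are equal, shifts the median log2 ratio by -0.13, to 0.061. Depth is unknown, and such a shift cannot be told apart from a difference between the libraries in reads.

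The 2 libraries parted most at large differences in height. A difference of at least 5 was found at 164 sets in favour of wild-type and at 77 in favour of Nrf2KO. For at least 10 the counts were 20 and 2, and for at least 15 they were 5 and 0. Sets were listed by a call in wild-type or Keap1KO, and none was called in Nrf2KO, which favours wild-type in these counts. All 13 sets with a wild-type height of at least 18 were at least 2-fold higher in wild-type, with a median log2 ratio of 1.44, whereas no set reached 18 in Nrf2KO. Sets chosen by their wild-type height lean towards high ratios by that choice, and these counts describe the upper end only. Across sets the heights of the 2 libraries were correlated with r = 0.393 by Pearson and 0.420 by Spearman (n = 1469 sets within the same pair of libraries, not independent replicates).

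**Figure D1:**
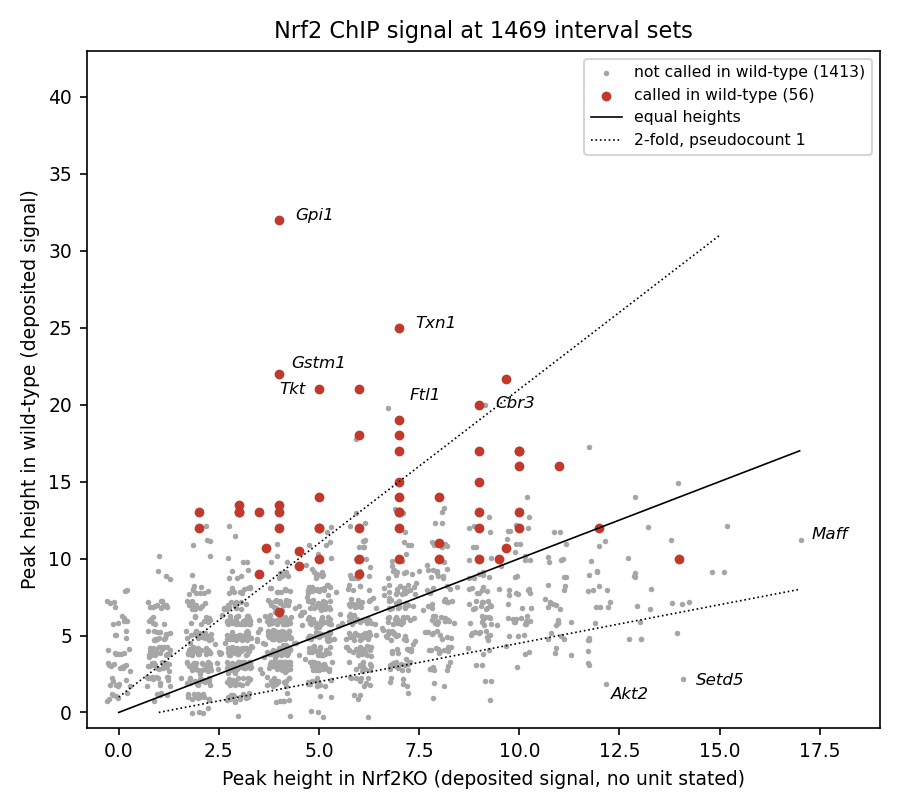
Peak height in wild-type (vertical axis) against Nrf2KO (horizontal axis), both in the deposited signal, for the 1469 interval sets; grey points are spread by up to 0.3 to show ties, and red points are the 56 sets called in wild-type. The tallest wild-type set, at Gpi1, had 32 against 4 in Nrf2KO, and the tallest Nrf2KO set, at Maff, had 17 against 11 in wild-type.

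The peak caller marked an interval in wild-type at 56 sets, 3.81% of all, and at 0 sets in Nrf2KO. At these 56 the median heights were 13 in wild-type and 7 in Nrf2KO, and wild-type was higher at 54. The median log2 ratio was 0.92 (quartiles 0.57 and 1.39), and 27 were at least 2-fold higher in wild-type. A call requires a tall wild-type peak, which raises this ratio. At the 1413 sets without a wild-type call, whose listing rests on Keap1KO, the median log2 ratio was 0.16, with 736 higher and 525 lower in wild-type. The sets at Thrap3, a splicing-associated protein (12 in both), and Chmp5/Nfx1 (10 in wild-type, 14 in Nrf2KO) were the 2 called sets where wild-type was not higher; they were named after their values were seen.

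Of the called sets, 44 were also called in Keap1KO, and their median log2 ratio was 1.07. The other 12 were called in wild-type and not in Keap1KO. They are given in full because they are few, and they too were named after their values were seen. Medians at these sets were 13 for wild-type, 7 for Nrf2KO and 9 for Keap1KO. Choosing sets with a call in wild-type and none in Keap1KO favours wild-type as the highest. Of the 12 sets, 9 lay within 1 kb of a gene start (75%, beside 50% of the 56 called sets and 31.2% of all sets). At least 2-fold higher in wild-type than in Nrf2KO were 3 (25%, beside 48.2% of the called sets and 18.2% of all sets). Those 3 were Tnrc6c, a scaffold of microRNA silencing (13 in wild-type, 4 in Nrf2KO), Ddx3x, an RNA helicase encoded on chromosome X (14 and 5), and Col6a6, a collagen VI chain (12 and 5). Ppm1a, a phosphatase of stress kinases and Smad proteins, had 17 and 10. Capn2, a calpain protease, had 16 and 10, and Ufl1, the ligase that attaches the ubiquitin-like protein Ufm1, had 16 and 11. The remaining 6 were Arl15 (14 and 7), Pwp1 (13 and 7), the set of Jam2, Atp5j and Gabpa (13 and 7), Map4k5/Atl1 (12 and 6), Psmb1/Tbp (10 and 7) and H3f3a (10 and 9). Heights in Keap1KO at these 12 ran from 2 to 14. No pathway gene of the 8 lists was among them.

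A missing call did not mean a low wild-type height. The lowest height with a wild-type call was 6.5, the mean over the 2 regions of Igfbp5, and 450 sets without a call reached it. Their median log2 ratio was 0.42, which choosing them by wild-type height raises. The next lowest called height was 9, which 169 sets without a call reached, and 100 without a call reached 10. Of these, 5 sets reached 15. They were Cbr3, a carbonyl reductase (20 in wild-type, 9 in Nrf2KO), the set of Gys1, Ftl1 and Bax (20 and 7), Acyp2, an acylphosphatase (18 and 6), Gtpbp4, a ribosome biogenesis GTPase (17 and 12), and Psmd1, a proteasome subunit (15 and 14).

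The largest wild-type to Nrf2KO ratios, among sets with a wild-type height of at least 10, were at 20 sets, 14 of which hold no gene of the pathway lists. The highest ratio was that of Gpi1. Gpi1 (glucose-6-phosphate isomerase of glycolysis) stood at 32 in wild-type against 4 in Nrf2KO, a 6.60-fold ratio, with 101 in Keap1KO. Its interval lay on chromosome 7 at position 34234016, 3711 bp upstream of Gpi1, and is also listed under 4931406P16Rik and under Gm12758, whose start is 329 bp away. Gstm1, a mu-class glutathione transferase, had 22 and 4 (4.60-fold) at position 108013504 of chromosome 3, 4469 bp into the gene. Tkt (transketolase of the pentose phosphate pathway) had 21 and 5 (3.67-fold) at position 30564608 of chromosome 14, 15459 bp into the gene. Txn1 (thioredoxin) had 25 and 7 (3.25-fold), 341 bp upstream of its start. These 4 are also among the 5 tallest wild-type sets; the remaining one, at the nuclear long non-coding RNA Neat1, had a mean of 21.7 over its regions against 9.67 in Nrf2KO. Usp3 was level with Tkt at 21.

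Among these 20 sets, 6 hold a gene of the Nrf2 pathway lists, 12 were called in wild-type and 4 lay within 1 kb of a gene start. Of the 152 sets with a wild-type height of at least 10, the corresponding counts were 22, 52 and 72. The pathway genes besides Gstm1, Tkt and Txn1 were Rxra, the retinoid X receptor alpha (13.5 and 3, 3.62-fold), Hmox1, heme oxygenase 1 (11.5 and 3, 3.12-fold), and Gclc, the catalytic subunit of the first enzyme of glutathione synthesis (13.5 and 4, 2.90-fold). All of these except Gstm1, Tkt and Txn1 are means over 2 regions. The Hmox1 and Gclc intervals nearest to a start were 3954 bp and 3895 bp upstream. Usp3, a histone deubiquitinase, had 21 in wild-type and 6 in Nrf2KO, and its Keap1KO height of 16 was below that of wild-type. Fnbp1, a membrane-bending protein, had 13 and 2. Tmem57 and Pik3r3/Mast2 had 12 and 2 each, and Trim56 (an innate immune ubiquitin ligase), Bin2 and AU019990 had 11 and 2 each. Mybpc1, a slow-muscle myosin-binding protein, and Ptpn13/Slc10a6 had 13 and 3 each, Dhx57 had 13 and 3.5, and LOC101055744 had 12 and 3. Pitpnm2 (10 and 2) and 4930461G14Rik (10 and 1) completed the 20. Across all 20, wild-type heights ran from 10 to 32 and Nrf2KO heights from 1 to 7, so the ranges of the 2 libraries did not overlap, which the rule for choosing them favours.

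The lowest ratios, among sets with a Nrf2KO height of at least 10, were at 10 sets whose wild-type heights of 2 to 5 all lie below the lowest height with a wild-type call. The set of Thumpd3, Gt(ROSA)26Sor (the Rosa26 locus) and Setd5 stood at 2 in wild-type against 14 in Nrf2KO, with 17 in Keap1KO. Akt2 had 2, 12 and 15, and Hdac5, a class IIa histone deacetylase, had 3, 12 and 22. 1700019O17Rik had 3 and 12 in wild-type and Nrf2KO, and 3230401D17Rik had 3 and 10. The clathrin adaptor gene Ap1m1, with LOC100505001, had 4 and 12. Gm6288 had 5 and 14, and Med11/Cxcl16/Zmynd15, Mllt3 (a transcription elongation factor) and Serinc1 had 4 and 11 each. Nrf2KO was 2.40-fold to 5-fold higher at these 10, and 6 of them lay within 1 kb of a gene start.

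**Figure D2:**
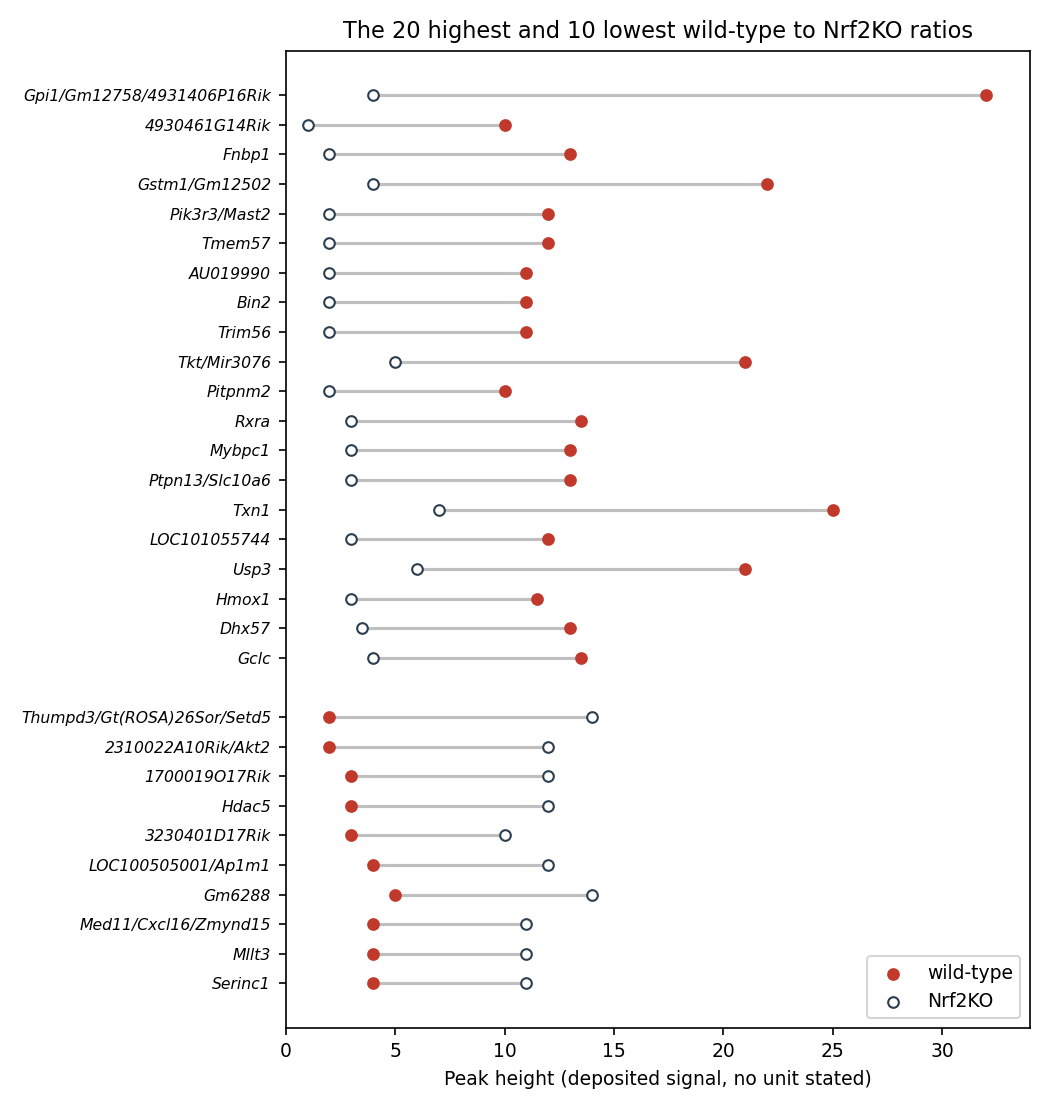
Peak heights (horizontal axis, deposited signal) of wild-type (filled red) and Nrf2KO (open) at the 20 highest ratios among sets with a wild-type height of at least 10 (upper block) and the 10 lowest among sets with a Nrf2KO height of at least 10 (lower block). Wild-type runs from 10 to 32 above and from 2 to 5 below.

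The tallest sites of the Nrf2KO library lay near gene starts. Its 4 highest sets were Maff (17), Osbp, an oxysterol-binding protein (15, with 12 in wild-type), Angptl2 (15) and Letm2/Whsc1l1 (15, with 9 in wild-type), and all 4 lay within 1 kb of a start. The fifth place was tied at 14 between several sets. Of the 128 sets with at least 10 in Nrf2KO, 93 lay within 1 kb of a start, against 458 of all 1469 sets. Of the 152 sets with at least 10 in wild-type, 72 did.

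Distance from gene starts went with the ratio. Near starts (within 1 kb, 458 sets) the median heights were 6.5 in wild-type and 7 in Nrf2KO, and the median log2 ratio was 0.00 (quartiles -0.49 and 0.42), with 196 sets higher and 214 lower in wild-type. Farther away (1011 sets) the medians were 5 and 4 and the log2 ratio 0.29 (-0.32 and 0.81), with 594 higher and 312 lower. At least 2-fold differences were even near starts, 36 in each direction, and went 232 to 81 in favour of wild-type farther away. The sets higher in wild-type include 48 listed at 0 in Nrf2KO, of which 1 lay near a start. With medians equalised, the near and far medians were -0.13 and 0.16. Within 250 bp and from 250 bp to 1 kb the medians were 0.00 each, and they were 0.28 from 1 to 5 kb, 0.22 from 5 to 20 kb and 0.32 beyond 20 kb. Among the distant sets the median was 0.19 upstream of genes (191 sets), 0.32 inside them (664) and 0.27 downstream (156). The sets called in wild-type, 28 near and 28 away, had medians of 0.77 and 1.20.

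The Keap1KO height, which the ratio does not use, sorted the sets by their wild-type to Nrf2KO ratio at its upper end. In 10 groups of 146 or 147 sets by Keap1KO height, the median log2 ratio was 0.00 in the lowest group and 0.32 and 0.58 in the 2 highest. Across the 7 groups between them, it was no higher than 0.19. In the highest group (Keap1KO heights of 34 to 194) wild-type was higher at 115 of 146 sets and at least 2-fold higher at 47. Near starts the median was 0.53 in that group (33 of 49 higher) and between -0.29 and 0.00 in the other 9. Farther away it was 0.58 in the highest group (82 of 97 higher), 0.48 in the next and between 0.00 and 0.32 in the others. The highest group was the one in which sets near starts had a median above 0. The wild-type and Nrf2KO medians in it were 9 and 6, against 4 and 5 in the lowest group.

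**Figure D3:**
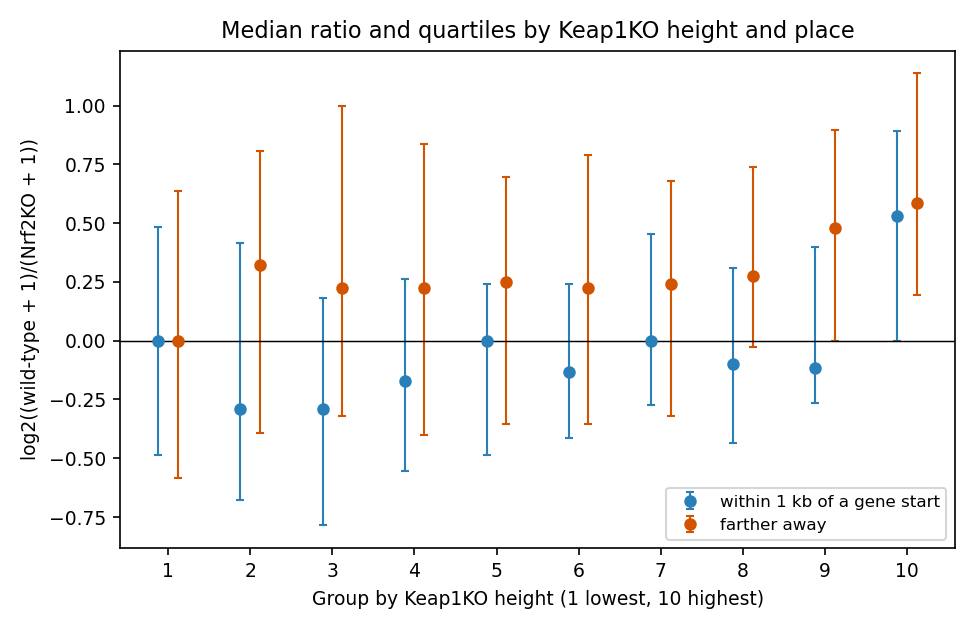
Median wild-type to Nrf2KO ratio, on the log2 scale (vertical axis; bars are quartiles over sets) in 10 groups of rising Keap1KO height (horizontal axis), for sets within 1 kb of a gene start (blue) and farther away (orange). Near starts the median was 0.53 in the highest group and at most 0.00 in the other 9.

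Wild-type signal was the higher one at most sets of the Nrf2 pathway. Of 122 genes in 8 lists, 61 are in the table, in 59 interval sets. Wild-type was higher at 45 of the 59 (42 with medians equalised) and lower at 10. Over all sets the share higher was 53.8%, or 52.2% with medians equalised. The 2-fold level was reached by 23 in favour of wild-type (39.0%, beside 18.2% of all sets) and by 1 in favour of Nrf2KO. The median log2 ratio was 0.78, beside 0.19 over all sets and 0.64 with medians equalised. Near starts it was 0.73 (28 sets) and farther away 0.81 (31). The pathway sets had tall Keap1KO peaks, and 30 of the 59 were in the highest Keap1KO group. There the 30 had a median of 1.07 and the 116 other sets one of 0.49, whereas the 29 pathway sets of lower Keap1KO height had 0.29. Of the 59, 9 were called in wild-type (15.3%, beside 3.81% of all sets). All 9 were in the highest Keap1KO group, where 27 of 146 sets were called.

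For this list and those that follow, the shares over all sets are 53.8% higher and 18.2% at least 2-fold higher in wild-type. Glutathione synthesis had a median of 0.14 over 8 sets, below the 0.19 of all sets. In this list 2 sets (25%) were at least 2-fold higher in wild-type. These were Gclc and Gclm, the catalytic and modifier subunits of glutamate-cysteine ligase, with Gclm at 5 in wild-type and 2 in Nrf2KO. The cystine transporter Slc7a11 had 3.67 in both libraries, and Gpx2, a glutathione peroxidase, had 3 in both. Glutathione reductase (Gsr) had 5.5 and 3.5, and Gpx4, the peroxidase of membrane lipids, 10 and 8. Gss, glutathione synthetase, was at 4.5 and 5.5, and Slc3a2, the partner of Slc7a11, at 3 and 6. At Slc7a11 and Gpx2 the Keap1KO heights were 29.7 and 26.

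The thioredoxin and peroxiredoxin list had a median of 0.94 over 6 sets, with wild-type higher at 5. Txnrd1, thioredoxin reductase 1, had 12 in wild-type and 5 in Nrf2KO as means of 2 regions. Txn1, Txnrd1 and Prdx1 were at least 2-fold higher, at 3.25-fold, 2.17-fold and 2.10-fold, and with medians equalised Txnrd1 (log2 ratio 0.98) and Prdx1 (0.93) were below 2-fold. Prdx6, a peroxiredoxin that also repairs phospholipids, had 6 in wild-type and 3 in Nrf2KO. Srxn1 had 13 and 10, a 1.27-fold ratio, beside a Keap1KO height of 158. Prdx2 had 3 and 4 in an interval shared with Junb.

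Quinone and carbonyl reduction had a median of 0.55 over 9 sets, with 6 higher in wild-type. Adh7, the alcohol dehydrogenase of upper digestive epithelium, had 6 in wild-type and 1 in Nrf2KO, and Cbr3 was 2.10-fold higher. Nqo1, the quinone reductase often used as a readout of Nrf2, had 12 and 6 (1.86-fold), and Akr1b10, an aldo-keto reductase, 13 and 7. Aldh3a1, an aldehyde dehydrogenase, had 7 in both. Ptgr1, a prostaglandin reductase, had 3 and 5, and Akr1b8 had 1 and 3, the one pathway set at least 2-fold lower in wild-type. Akr1b8 stood at 29 in Keap1KO.

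Glutathione transferases, which attach glutathione to electrophiles, had a median of 1.06 over 11 sets, and 6 were at least 2-fold higher in wild-type. Besides Gstm1, Gsta4 had 8 in wild-type and 2 in Nrf2KO, and Gstm3 had the same 8 and 2. Mgst2 had 5 and 1, Gstm2 4 and 1, and the interval pair of Gstp1 and Gstp2 10.5 and 4.5. Mgst1 (8 and 4) and Gsta3 (6 and 3) were below 2-fold on this scale. Gsto2 had 2 in both libraries, and Gstz1 and the interval of Gstm6 and Gstm7 had 6 and 7 each. Members of this family share sequence, and how reads that match several copies were placed is not given in the sources used here.

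All 5 sets of NADPH supply were higher in wild-type, with a median of 1.00. Taldo1 (transaldolase) had 8 in wild-type and 2 in Nrf2KO, G6pdx (glucose-6-phosphate dehydrogenase) 5 and 2, and malic enzyme Me1 7 and 4. Pgd, phosphogluconate dehydrogenase, had 7.5 and 6.5, the smallest ratio of the list, and Tkt the largest. G6pdx lies on chromosome X, whose 16 sets had a median of 1.08. Heme and iron genes had a median of 0.79 over 4 sets, all higher in wild-type as deposited. The ferritin light chain gene Ftl1 had 20 and 7 (2.62-fold), while the heavy chain gene Fth1 had 7.5 and 6.5 and the heme transporter Slc48a1 11 and 10. Scaling the medians to be equal took Slc48a1 to a log2 ratio of -0.013.

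Conjugation and export had a median of 0.74 over 5 sets. The transporters Abcc1 (9 in wild-type, 3 in Nrf2KO) and Abcc3 (3 and 1) were at least 2-fold higher, and Abcc5 had 4 and 2. Ugdh, which makes the sugar donor for glucuronidation, had 6 and 3.5. Abcb6, a porphyrin transporter, had 7 and 9. Of the pathway's own regulators, 9 of 11 sets were higher in wild-type (7 with medians equalised), with a median of 0.47. Nfe2l2 itself, 561 bp into the gene, had 17 in wild-type and 7 in Nrf2KO, which is a height of antibody signal at that site and no check of the deletion. Rxra was 3.62-fold higher. Ppard, a nuclear receptor, had 14 and 10, and Mafg, a small Maf partner of Nrf2, 8.67 and 6. The repressor Bach1, which competes for the same elements, had 10.5 and 10, turning to a log2 ratio of -0.074 after scaling. Keap1 had 6.33 and 7.67, and Maff 11 and 17, so these 2 were the regulators with a lower height in wild-type.

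**Figure D4:**
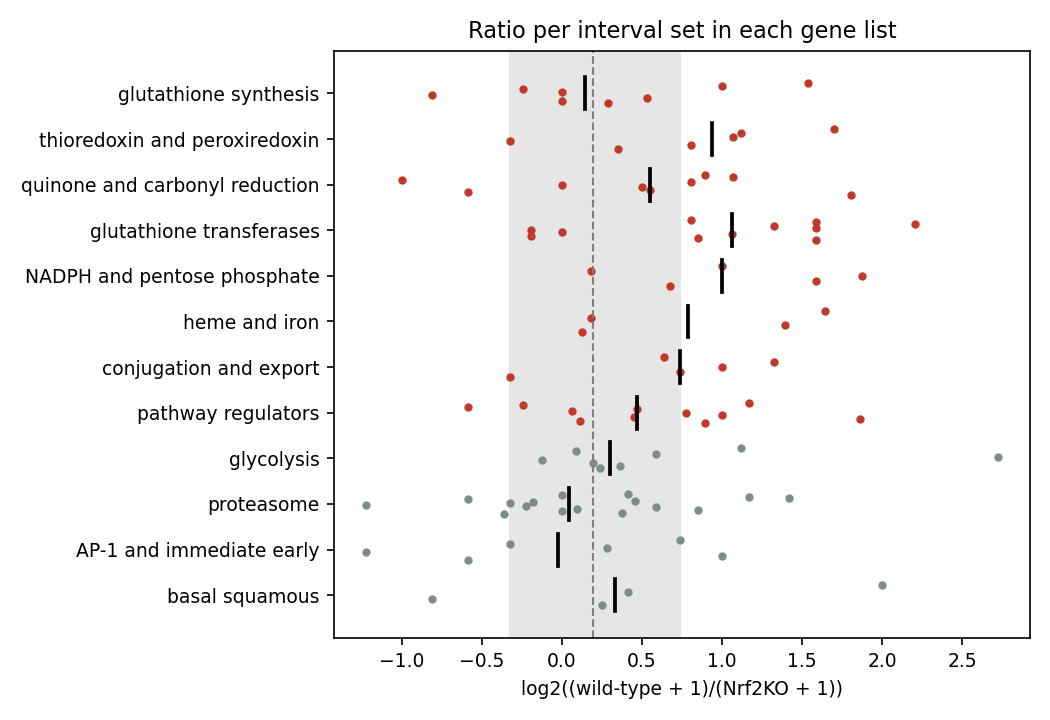
Log2 ratio of wild-type to Nrf2KO (horizontal axis) for each interval set of the gene lists with at least 3 sets; red points are Nrf2 pathway lists, grey points other lists, black bars list medians, and the dashed line and shaded band the median and quartiles of all 1469 sets. List medians ran from 0.14 to 1.06 in the pathway lists and from -0.021 to 0.33 in the others.

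Of the lists outside the pathway, the 4 with at least 3 sets had medians between -0.021 and 0.33. Glycolysis had 0.30 over 8 sets, 7 of them higher in wild-type (6 with medians equalised). It held Gpi1 and the glucose transporter Slc2a1 (12 in wild-type, 5 in Nrf2KO, 2.17-fold), whereas Eno1 (enolase) had 8 and 6 and Aldoa (aldolase) 10 and 11. The proteasome list, 16 sets of which 15 lay within 1 kb of a start, had 8 higher and 6 lower in wild-type (7 and 9 with medians equalised) and a median of 0.047, which became -0.092 with medians equalised. Its core subunits Psma4 (8 and 3) and Psma5 (7 and 2) were at least 2-fold higher in wild-type, and the ATPase subunit Psmc1 (5 and 13) was at least 2-fold lower. Promoters of this complex did not share a direction in these 2 libraries.

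AP-1 and immediate early genes had a median of -0.021 over 6 sets, 3 higher and 3 lower in wild-type, with Fosl1 at 4 and 2 and Ier5 at 2 and 6. Genes of the basal squamous layer, 4 in the table of 16, had a median of 0.33. They were Krt14, Trp63, Notch1 (8.5 and 7) and Pax9, an esophageal transcription factor (3 and 6). Krt14, a basal keratin, shares its set with Krt9, and the set had 3 in wild-type and was listed at 0 in Nrf2KO. The interval lay 5506 bp upstream of Krt9, its nearest start, and 8758 bp from the Krt14 start. Trp63, the p63 regulator of squamous cells, had 3 and 2, at an interval 216075 bp from its start. ChIP signal does not measure expression, so these lists do not check the tissue. Of the 22 squamous differentiation genes 1 had an interval, Klk5 (3 and 1). Of 15 muscle genes 2 had one, Ttn (6 and 3) and Lmod1 (7 and 5). Of 12 fibroblast and endothelial genes 2 had one, Vim (7 and 8) and Dpt (3 and 7). Of 12 immune genes 1 had one, Cd68, in a set shared with Mpdu1 (9 in both). Of 14 housekeeping genes 2 had one, Tbp (10 and 7) and Hprt (3 and 4). The number of sets in the last 5 lists allows no statement on the list.

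Chromosome X had the highest median ratio of the 20 chromosomes, 1.08 over 16 sets (quartiles 0.20 and 1.58), as against a range of -0.11 on chromosome 14 to 0.45 on chromosome 16 over the autosomes. Wild-type was higher at 12 of the 16 (75%, beside 53.8% of all sets) and at least 2-fold higher at 9 (56.25%, beside 18.2%). Heights were low, with medians of 5 in wild-type and 3 in Nrf2KO. Among the 9, D330045A20Rik and Ids had 2 in wild-type and were listed at 0 in Nrf2KO. The 10 sets away from starts had a median log2 ratio of 1.5, at median heights of 5 and 1.5. The 6 near starts had a median log2 ratio of 0.54. Beside Ddx3x, the sets with the greatest differences were Tfe3, a lysosomal transcription factor (6 in wild-type, listed at 0 in Nrf2KO), Pir, an iron-binding protein of the pathway lists (12 and 6), Tbl1x, a corepressor subunit (8 and 3), 1110059M19Rik (7 and 2), AA414768 and Jpx (5 and 1 each). Iqsec2/Kdm5c (8 and 10), Nyx (2 and 5) and Hprt (3 and 4) were lower in wild-type. These genes were named after their values were seen. The sex of the mice is not in the labels used here. Without chromosome X the median of all other sets was 0.19, as with it.

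**Figure D5:**
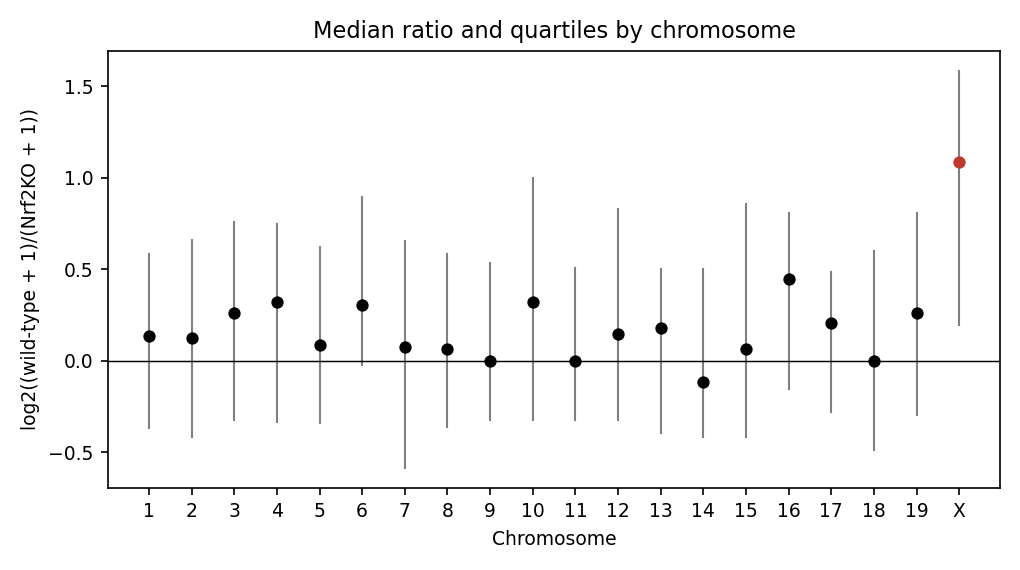
Median wild-type to Nrf2KO ratio, on the log2 scale (vertical axis) of the interval sets on each chromosome (horizontal axis), with quartiles over sets as lines and chromosome X in red. The X median of 1.08 is above the autosomal range of -0.11 to 0.45, with 16 sets behind it.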

How the data were processed

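Mouse esophagus (C57BL/6) was frozen and Nrf2 ChIP was done by Active Motif with the Santa Cruz antibody sc-13032, per the labels' protocols. The submitters' processing notes name the aligner BWA, the peak caller MACS2 2.1.0 and the build mm10. Settings, library depth and scaling of one library to another were not given in the sources used here, so no counting error can be attached to a height. The authors deposited 1 row per gene with a signal value (average peak height) for each ChIP library, a flag for a called interval and the count of intervals and regions. Per the file headers these are average peaks, without a unit. The input library was not analysed here.

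Gene rows with the same intervals were merged, giving 1469 sets from 1727 distinct intervals on 20 chromosomes. Of these sets, 228 have several regions (up to 5), with a mean height, and 120 share an interval with another set. Every set was listed because of a call in wild-type or Keap1KO, so heights in those libraries were selected by that call. A position is the gene's start plus or minus the listed distance, by strand, and the interval nearest to a start gave the place of a set. Comparisons use a pseudocount of 1, no filter and a 2-fold rule that describes size only; with 1 library per genotype no test was possible, and medians and quartiles are over sets, which are not replicates. Genes were named by a rule: the 20 highest ratios at a wild-type height of at least 10, the 10 lowest at a Nrf2KO height of at least 10, the 5 highest in each library, pathway genes with a height of at least 10 and up to 4 genes of each other list. Some genes picked by this rule, and some other members of the 17 lists, are not given in the text. List counts and medians cover all members with an interval. The comparison, lists and rules were chosen with earlier results of these data known. Promoter windows came from RefSeq (GRCm38.p6), and 1434 of 1940 gene rows matched by identifier. The calculations were tested on simulated data and run in Python 3.11.15 with pandas 2.3.3 and numpy 2.4.6. Other pseudocounts, filters, fold rules, scaling and subsets were tried as alternatives.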

Additional observations from a re-analysis of the deposited data

How the results depend on the processing

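No paired analysis was possible because every genotype was profiled in a single library, and for the same reason no library could be left out. The alternative of another signal column was not run, since the table has no other height per library. The overall median log2 ratio (0.19) was 0.10 among sets with a mean height of at least 5, 0.061 with wild-type scaled to the Nrf2KO median and 0.29 among sets more than 1 kb from a start. The share of sets higher in wild-type was 51.2% and 58.8% in the first and last of these. Sets at least 2-fold higher (268) numbered 58 with a pseudocount of 5, 97 with the height filter, 467 at 1.5-fold and 105 at 3-fold, and those lower (117) numbered 13, 52, 270 and 26. With scaling 60.1% of the 2-fold sets were higher in wild-type, beside 69.6% as deposited. A pseudocount of 5 gave medians of 0.66 at wild-type calls (0.92), 0.17 away from starts (0.29), 0.38 in the highest Keap1KO group (0.58) and 0.42 over the pathway lists (0.78). The height filter gave 0.23 and 0.81 away from starts and in that group. Scaling gave -0.13 near starts and 0.16 away. The median changed sign for the proteasome list under scaling (-0.092) and for the AP-1 list with a pseudocount of 5 (0.0072). Among named sets, scaling turned the log2 ratio of Slc48a1 (-0.013), Bach1 (-0.074) and Psmd1 (-0.049), and it took 7 below 2-fold, among them Txnrd1, Prdx1, Cbr3, Gstp1/Gstp2, Slc2a1 and Neat1. A pseudocount of 5 took 17 to less than 2-fold. Of the alternatives, those that dropped called sets, sets near starts or chromosome X were chosen after seeing the data, as was scaling for all but the whole table. Depth is unknown, so the precision that it gives to low heights could not be stated.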

Other observations

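No set was listed at 0 in both libraries. Nrf2KO was listed at 0 in 48 sets, 1 of them within 1 kb of a gene start, with wild-type heights of 1 to 8 and a median of 3. With a pseudocount of 1 all 48 count as at least 2-fold higher in wild-type. The tallest in wild-type were Enc1, an actin-binding adaptor, and Sema4f, a semaphorin (8 each), followed by B3galnt2, Gnat3, Tbcel and Tnni3k (7 each). Wild-type was listed at 0 in 10 sets, with Nrf2KO heights of 2 to 6. Among these were Trim29, a ubiquitin ligase of squamous epithelium (6 in Nrf2KO), Fbxo21 (3), the set of Spryd3, Igfbp6 and Soat2 (4), and the sulfide oxidase gene Sqrdl (2). All of these genes were named after their values were seen.

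Further sets called in both wild-type and Keap1KO held genes outside the lists, and those given here were likewise chosen after their values were seen. Arntl, the clock activator Bmal1, stood at a mean of 10.7 in wild-type against 3.67 in Nrf2KO, with 28.3 in Keap1KO. Lpl, lipoprotein lipase, had 9, 3.5 and 18. Pvt1, a long non-coding RNA next to Myc, had 12, 4 and 43.5. Vcp/Fancg, which includes the p97 segregase, had 10, 5 and 44, and Trim16, a ubiquitin ligase of stress responses, 17, 10 and 54. Wild-type was above Keap1KO at 3 of the 44 sets called in both, namely Usp3 (21 and 16), the set of Asxl2 and 1110002L01Rik (14 and 11) and Ets2 (13 and 11), and Nrf2KO stood at 6, 8 and 9 there.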
